A study of Mus musculus with 12 samples.

Results

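The difference between 2 library preparation kits was measured in liver RNA of mice on the control diet, gene by gene and within each mouse. The kits were Trad-KAPA, a whole transcript method, and 3’-LEXO, a 3′ end counting method, and each was applied to the same RNA stock of 3 mice. The rule for a gene was an expression filter within these 6 libraries, which 13541 of the 27022 genes in the count table passed, out of 24910 with at least 1 read in them. At least 99.8% of the reads of each library fell on the genes that passed.

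The study compared the kits on liver RNA of 6 mice, 3 on the control diet and 3 on an iron-loaded diet, in 12 libraries. All mice were female SJL/J, an inbred strain, and tissues were collected at 11 weeks of age after a morning fast, with the blood flushed out by perfusion with saline. The control-diet mice ate AIN-93G with 50 ppm iron, and the iron-loaded mice ate AIN-93G with 2% carbonyl iron from 6 weeks of age. Each diet was given to a single cage of 4 mice, and the effect of the cage cannot be told apart from that of the diet. The RNA was taken from 20 mg of the large liver lobe. The replicate number was taken to name the mouse, so the control libraries formed 3 pairs. The p-values of the paired tests cover the spread of the kit ratio over these 3 mice, and not their differences in level. The libraries of each kit were pooled separately, so a batch of preparation or pooling cannot be told apart from the kit.

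In a whole transcript kit, mRNA is captured by its poly(A) tail, broken into fragments and copied with random primers, so that a long mRNA gives more fragments than a short one. In a 3′ counting kit, an oligo-dT primer starts the copy at a stretch of A, and a read is taken near that end of the RNA. Liver RNA is dominated by a few mRNAs for secreted plasma proteins, made by hepatocytes, beside mRNAs for detoxification, nitrogen, lipid and glucose metabolism and the RNAs of many mitochondria.

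The Trad-KAPA totals lay between 13834682 and 16553616 counts and the 3’-LEXO totals between 13975241 and 14104236. Levels are given in RPM, the reads-per-million share of a library's total, and are not divided by length unless stated. The kit difference of a gene is the log2 ratio of 3’-LEXO over Trad-KAPA, with its SD over the 3 mice. It was tested with edgeR's quasi-likelihood test with the mouse as a block, and a gene is named as called where the Benjamini-Hochberg adjusted p was below 0.05. The scaling by trimmed means set the median log2 ratio of all genes to -0.00, so every ratio is relative to the typical gene.

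Most genes were read unequally by the kits. Of the 13541 genes, 5200 (38.4%) were called higher in 3’-LEXO and 5182 (38.3%) higher in Trad-KAPA, together 76.7%, and 3159 were not called. Counts of members called in the gene lists below are to be read beside these shares of all genes. For 9752 genes (72.0%), the 3 libraries of a kit lay entirely above or below those of the other kit. The difference was nevertheless moderate for many genes, with 57.6% within 2-fold, quartiles of the log2 ratio at -0.83 and 0.84, and a median SD over mice of 0.22. Differences of 4-fold and more were called for 1099 genes (8.12%) higher in 3’-LEXO and for 925 genes (6.83%) higher in Trad-KAPA. Across genes, the Spearman correlation of the kits in the same mouse was 0.848 to 0.855 over the 13541 genes, which are not independent and share the RNA.

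**Figure D1:**
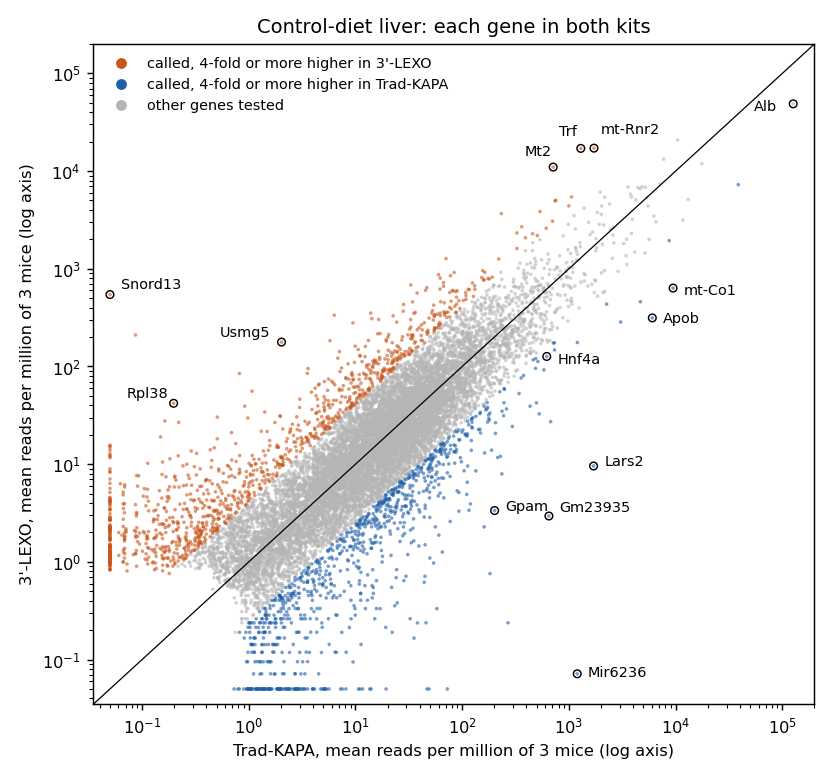
Mean RPM of the 3 control-diet mice in Trad-KAPA (horizontal) and 3’-LEXO (vertical), both on log axes, with 1 point for each of the 13541 genes tested; values under 0.05 are drawn at 0.05, and the line marks equal levels. Orange points (1099 genes) were called and at least 4-fold higher in 3’-LEXO, blue points (925 genes) at least 4-fold higher in Trad-KAPA, and the labelled genes are described in the text.

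The mRNAs of secreted plasma proteins together took a larger share of reads in Trad-KAPA, through the single gene Alb. The 40 genes of the plasma protein list held 22.5% ± 0.791 of all reads in Trad-KAPA, against 15.7% ± 0.994 in 3’-LEXO (SD, n = 3), lower in 3’-LEXO in all 3 mice (exact sign-flip permutation test, p = 0.25, the smallest value that 3 pairs allow). Most of the Trad-KAPA share was that of Alb, and the other members together held a larger share in 3’-LEXO in each mouse. Of the 40 genes, 24 (60%) were called higher in Trad-KAPA and 12 (30%) in 3’-LEXO, against 38.3% and 38.4% of all genes. The median log2 ratio was -0.52 against -0.00 over all genes. Alb, which encodes serum albumin and took the most reads of any gene in every control library, stood at 119514, 127411 and 132418 RPM in Trad-KAPA and at 42122, 55988 and 48283 RPM in 3’-LEXO. The kits did not overlap, and Alb was 2.64-fold lower in 3’-LEXO (log2 ratio -1.40 ± 0.13, adjusted p = 1.4e-10). Ahsg, the gene of the plasma carrier fetuin-A, went the other way. Its level was 10224, 10736 and 10396 RPM in Trad-KAPA and 21267, 20351 and 20816 RPM in 3’-LEXO, and these values were 1.96-fold higher in 3’-LEXO. Mug1 and Pzp, which encode protease inhibitors of the alpha-2-macroglobulin family, were 5.22-fold and 4.63-fold lower in 3’-LEXO. Ttr, the carrier of thyroid hormone and retinol-binding protein, was 1.41-fold higher in 3’-LEXO.

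The apolipoproteins are the protein parts of lipoproteins. Of 20 tested, 12 (60%) were called higher in 3’-LEXO and 8 (40%) in Trad-KAPA, against 38.4% and 38.3% of all genes. The largest difference among the abundant ones was that of Apob (ENSMUSG00000020609, GRCm38 chromosome 12, 7977648 to 8016835), the core protein of very low density lipoprotein. Apob stood at 4842, 5898 and 7404 RPM in Trad-KAPA and at 274, 296 and 373 RPM in 3’-LEXO, 19.4-fold lower (log2 ratio -4.28 ± 0.13, adjusted p = 2.9e-16). The order of the 3 mice was the same in both kits, from mouse 1 to mouse 3. Apoe, which clears lipoprotein remnants, was 1.5-fold lower in 3’-LEXO, whereas Apoa2, a short mRNA for a protein of high density lipoprotein, was 1.5-fold higher. Apoc2, the activator of lipoprotein lipase, was near the detection limit at 19 to 30 reads per Trad-KAPA library and 0 or 1 read in 3’-LEXO, and 21.7% of its exonic 50-mers were unique among the annotated exons.

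Complement and coagulation genes were more often higher in Trad-KAPA (median log2 ratio -0.59). Of 40 tested, 23 (57.5%) were called higher there and 12 (30%) higher in 3’-LEXO, against 38.3% and 38.4% of all genes. C3, the central complement component, had 11364, 11882 and 11799 RPM in Trad-KAPA and 2839, 3611 and 2978 RPM in 3’-LEXO, 3.79-fold lower. F2, the gene of prothrombin, had 2204, 2177 and 2113 RPM in Trad-KAPA and 5203, 5578 and 5437 RPM in 3’-LEXO, 2.46-fold higher. These 2 abundant genes were therefore read in opposite directions, with no overlap of kits in either. Masp1, a protease of the lectin pathway, and C4a, a copy of complement C4, were 31-fold and 34.8-fold lower in 3’-LEXO, at 3.07 to 4.65 and 2.91 to 3.79 RPM.

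**Figure D2:**
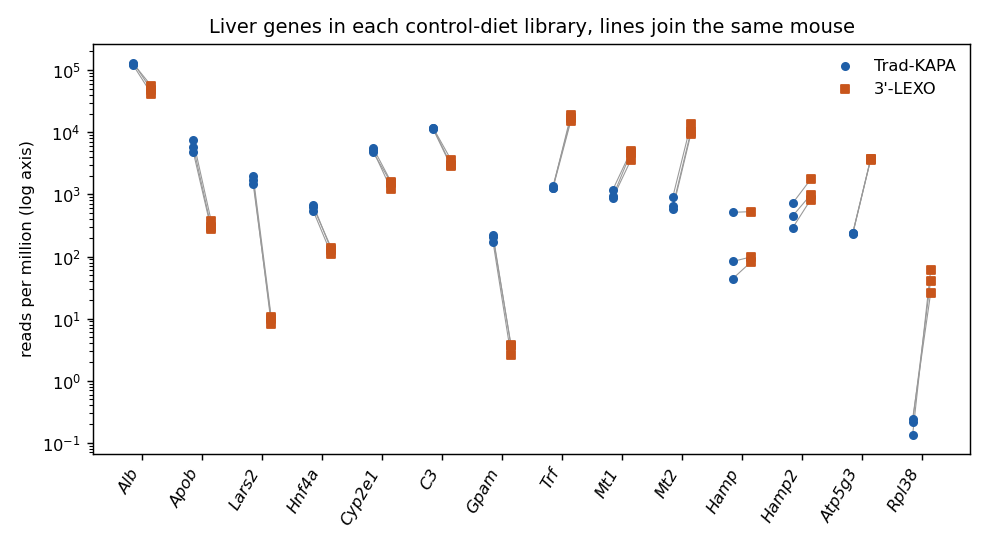
Levels in RPM (log axis) of 14 named genes in each of the 6 control-diet libraries, with circles for Trad-KAPA, squares for 3’-LEXO and lines joining the libraries of the same mouse. The kits are separate for 13 of the genes, and for Hamp they overlap, with 44.0 to 515 in Trad-KAPA and 81.0 to 528 in 3’-LEXO.

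By number of genes, detoxification genes were mostly called higher in Trad-KAPA. The cytochrome P450 genes encode haem enzymes of drug, steroid and fatty acid oxidation. Of 63 tested, 42 (66.7%) were called higher in Trad-KAPA and 11 (17.5%) in 3’-LEXO, against 38.3% and 38.4% of all genes. Their median log2 ratio was -0.72. Cyp2e1, the ethanol-oxidizing enzyme of pericentral hepatocytes, had 5106, 4784 and 5626 RPM in Trad-KAPA against 1209, 1541 and 1592 RPM in 3’-LEXO and was 3.64-fold lower. Cyp3a11, a main drug-metabolizing enzyme, had 1800, 1800 and 1841 RPM against 1470, 1864 and 1589 RPM, and the kits overlapped (log2 ratio -0.17 ± 0.14, adjusted p = 0.081). Among 51 conjugation enzymes, 27 were called higher in Trad-KAPA and 11 in 3’-LEXO. Their abundant members were Gsta3, a glutathione transferase, which was not called (1.05-fold, adjusted p = 0.47), and Mgst1, a membrane-bound glutathione transferase, which was 2.20-fold higher in 3’-LEXO.

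The UDP-glucuronosyltransferases of the Ugt1a locus, which share their last exons, were read almost only by Trad-KAPA. Ugt1a1, which conjugates bilirubin, had 170, 153 and 158 RPM in Trad-KAPA and 2.29, 2.5 and 2.06 RPM in 3’-LEXO, 71.0-fold lower (log2 ratio -6.15 ± 0.13, adjusted p = 8.9e-17). Ugt1a9 had 172, 173 and 202 RPM in Trad-KAPA and 0.5, 0.501 and 1.28 RPM in 3’-LEXO, 241-fold lower. In both genes, 0 of the 50-mers in the last 300 bases was unique among annotated exons, against 19.8% and 38.0% over all their exons. Only reads that mapped uniquely were counted, and the part of shared sequence in these ratios was not tested. The same limit holds for Cyp3a41b, with 141 to 187 reads per library in Trad-KAPA and 0 or 1 in 3’-LEXO, where 6.50% of exonic 50-mers were unique.

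Nitrogen, lipid and glucose metabolism held genes of both directions. In the urea cycle and amino acid list, 19 of 39 genes (48.7%) were called higher in Trad-KAPA and 12 (30.8%) in 3’-LEXO (median log2 ratio -0.12). The shares of all genes were 38.3% and 38.4%. Cps1, the entry enzyme of the urea cycle, had 6954, 4437 and 5524 RPM in Trad-KAPA and 2521, 1525 and 1959 RPM in 3’-LEXO, 2.87-fold lower and in the same order of mice in both kits. Mat1a, which makes S-adenosylmethionine, was 1.52-fold higher in 3’-LEXO, and Ass1, which makes argininosuccinate, was 6.79-fold lower. In lipid synthesis, 21 of 40 genes (52.5%) were called higher in Trad-KAPA and 16 (40%) in 3’-LEXO. Scd1, the stearoyl-CoA desaturase, had 15275, 13252 and 10838 RPM in Trad-KAPA and 5646, 5242 and 4490 RPM in 3’-LEXO, 2.58-fold lower. Gpam, which starts triglyceride synthesis, showed the largest difference of this list, with 174, 224 and 206 RPM in Trad-KAPA and 2.57, 3.65 and 3.83 RPM in 3’-LEXO (61.0-fold lower, adjusted p = 8.9e-17). Of the exonic 50-mers of Gpam, 100% were unique, and it did not overlap another gene.

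In fatty acid oxidation, 16 of 38 genes were called higher in each kit, 42.1% against 38.4% and 38.3% of all genes. The peroxisomal enzyme Ehhadh was 16.4-fold lower in 3’-LEXO, whereas Fabp1, the fatty acid carrier of the liver, was 3.00-fold higher and Etfb, an electron carrier of mitochondria, 13.1-fold higher. In glucose metabolism, 18 of 26 genes (69.2%) were called higher in Trad-KAPA and 4 (15.4%) in 3’-LEXO (median log2 ratio -0.83). Pck1, the first committed enzyme of gluconeogenesis, was 1.41-fold higher in 3’-LEXO with libraries that overlapped between kits. Of 28 bile acid and transporter genes, 18 (64.3%) were called higher in Trad-KAPA and 6 (21.4%) in 3’-LEXO. Slco1b2, an uptake carrier of organic anions, was 2.43-fold higher in 3’-LEXO, Abcc6, an export pump, was 11.1-fold lower, and Slc27a5, which activates bile acids, was not called (1.01-fold, adjusted p = 0.86).

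Of the 48 liver transcription factors tested, 22 (45.8%) were called higher in 3’-LEXO and 20 (41.7%) in Trad-KAPA, near the shares of all genes (median log2 ratio 0.14). Hnf4a, the nuclear receptor that maintains hepatocyte identity, had 684, 627 and 548 RPM in Trad-KAPA and 130, 140 and 111 RPM in 3’-LEXO, 4.97-fold lower (log2 ratio -2.31 ± 0.08, adjusted p = 1.2e-13). Nr1d1, a repressor of the circadian clock, was 8.03-fold lower. Cebpa, a factor of hepatocyte differentiation, was not called (1.06-fold, adjusted p = 0.50).

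Iron genes, the subject of the diet in the study, were called higher in Trad-KAPA for 25 of 40 tested and higher in 3’-LEXO for 11 (median log2 ratio -0.40), while their summed share of reads was 1.37% ± 0.162 in Trad-KAPA, against 2.77% ± 0.385 in 3’-LEXO. The direction of the sum and that of the median differed. Trf (ENSMUSG00000032554, GRCm38 chromosome 9, 103204001 to 103230444), which encodes transferrin, the iron carrier of plasma, held most of the 3’-LEXO share. It had 1274, 1342 and 1261 RPM in Trad-KAPA and 19007, 16828 and 15378 RPM in 3’-LEXO, 13-fold higher (log2 ratio 3.70 ± 0.18, adjusted p = 1.8e-15). In the annotation, 63.5% of its exonic bases overlapped another gene of the same strand and 40.6% of its 50-mers were unique, but 100% of those in its last 300 bases were unique, and the part of this overlap in the ratio was not tested.

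Among the regulators of iron, Hamp, the gene of the hormone hepcidin, varied more between mice than between kits. It had 515, 44.0 and 83.2 RPM in Trad-KAPA and 528, 81.0 and 98.3 RPM in 3’-LEXO (1.27-fold higher, adjusted p = 0.011). Mouse 1 was highest in both kits, and without the mouse as a block the adjusted p was 0.898. Hamp2, a second hepcidin gene of the mouse, had 725, 290 and 451 RPM in Trad-KAPA and 1749, 824 and 985 RPM in 3’-LEXO, 2.43-fold higher. Id1, a target of BMP signalling, was likewise highest in mouse 1, with 14.2, 4.96 and 3.11 RPM against 54.1, 16.2 and 14.8 RPM, 3.79-fold higher in 3’-LEXO. Bmp6, the ligand that signals liver iron, had 39 to 62 reads per library in Trad-KAPA and 0 or 1 in 3’-LEXO, where 30.3% of the 50-mers in its last 300 bases were unique. Cp, the plasma ferroxidase, was 1.90-fold lower in 3’-LEXO, Lcn2, a siderophore-binding protein, 2.41-fold lower, and Bdh2, which makes a siderophore-like molecule, 2.34-fold higher. Hfe2, the BMP coreceptor hemojuvelin, was not called (1.12-fold lower, adjusted p = 0.10). Ftl1, the ferritin light chain, was counted at 5.28 to 10.8 RPM in Trad-KAPA and at 0.214 to 0.638 RPM in 3’-LEXO, and 41.6% of its exonic 50-mers were unique.

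Short nuclear mRNAs of mitochondria were read higher by 3’-LEXO nearly as a block. Of 80 nuclear subunits of the respiratory chain, 69 were called higher in 3’-LEXO, 37 of them by 4-fold and more, and 8 higher in Trad-KAPA (median log2 ratio 1.79). Their summed share was 0.712% ± 0.0297 in Trad-KAPA, against 2.25% ± 0.0493 in 3’-LEXO. Atp5g3, which encodes a c-ring subunit of ATP synthase, had 228, 235 and 235 RPM in Trad-KAPA and 3638, 3668 and 3730 RPM in 3’-LEXO, 15.6-fold higher (log2 ratio 3.96 ± 0.06, adjusted p = 3.5e-16). Atp5b, the catalytic subunit of the same enzyme and a longer mRNA, was 1.31-fold lower in 3’-LEXO. For the mitochondrial ribosomal proteins, 58 of 76 were called higher in 3’-LEXO and 6 in Trad-KAPA (median log2 ratio 0.97), with Mrpl12 4.27-fold and Mrpl17 5.78-fold higher. Mrps18b was an exception at 23.6-fold lower, and 0 of the 50-mers in its last 300 bases was unique.

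The direction was the same for most genes called in the cytosolic ribosome and the proteasome. Of 75 cytosolic ribosomal protein genes tested, 48 were called higher in 3’-LEXO and 19 in Trad-KAPA (median log2 ratio 1.01). Rpl8 and Rps3, the most abundant by mean RPM, were 2.02-fold and 3.04-fold higher. Rpl38 was counted 4, 2 and 3 times in the Trad-KAPA libraries and 356, 834 and 577 times in 3’-LEXO (log2 ratio 7.6 ± 0.93), and Rpl37a was 29.1-fold higher. These mRNAs have many processed copies in the genome, and 72.6% and 80.5% of their exonic 50-mers were unique among annotated exons. Of 47 proteasome genes, 32 were called higher in 3’-LEXO and 7 in Trad-KAPA (median log2 ratio 0.82). Psmb4 was 5.20-fold and Psma7 3.90-fold higher.

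Metallothioneins and other very short mRNAs formed another group read higher by 3’-LEXO. Of the 45 genes of that list, 36 were called higher in 3’-LEXO and 6 in Trad-KAPA (median log2 ratio 1.58), and their summed share was 0.458% ± 0.0784 in Trad-KAPA, against 2.33% ± 0.323 in 3’-LEXO. Mt2, a metallothionein that binds zinc and copper, had 910, 585 and 641 RPM in Trad-KAPA and 13514, 9300 and 10155 RPM in 3’-LEXO. It was 15.3-fold higher (log2 ratio 3.94 ± 0.05, adjusted p = 3.6e-16), with mouse 1 highest in both kits. Mt1, its neighbour, had 1193, 926 and 874 RPM against 4950, 4678 and 3584 RPM, and was 4.35-fold higher. In the annotation, 73.5% of the exonic bases of Mt2 overlapped a gene of the other strand. Usmg5, a small ATP synthase-associated protein, had 2.05, 2.08 and 1.95 RPM in Trad-KAPA and 141, 196 and 196 RPM in 3’-LEXO, 84.8-fold higher. S100a4, a calcium-binding protein, had 1 or 2 reads per library in Trad-KAPA and 98 to 119 in 3’-LEXO, a level at least 38.5-fold higher than the floor of 3 reads.

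Histone genes of the replication-dependent clusters, whose mRNAs mostly end in a stem-loop without a poly(A) tail, were mostly too low to test. Of the 55 listed, 13 passed the filter, and a gene this low can pass through the kit where it is high, so their directions are not counted. Hist1h2bc and Hist1h1c, the 2 with the most reads, had 39.9 to 54.3 and 23.2 to 35.9 RPM in Trad-KAPA and 62.5 to 119 and 74.4 to 99.9 RPM in 3’-LEXO. Hist1h4c was counted 0 times in each Trad-KAPA library and 17, 11 and 14 times in 3’-LEXO. Of 10 histone genes outside the clusters, whose mRNAs carry a tail, 7 were called higher in 3’-LEXO and 1 in Trad-KAPA, with H3f3b 2.90-fold and H2afv 10.2-fold higher and H1f0 1.40-fold lower.

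The major urinary proteins, lipocalin carriers of pheromones made by the liver, were split gene by gene. Of 16 tested, 10 (62.5%) were called higher in 3’-LEXO and 2 (12.5%) in Trad-KAPA, against 38.4% and 38.3% of all genes (median log2 ratio 1.72). A low member such as Mup10 can pass the filter through the kit where it is high. These directions and this median were thus partly fixed by the filter. Mup3, which took most of the reads, had 816, 888 and 1279 RPM in Trad-KAPA and 814, 1043 and 1201 RPM in 3’-LEXO and was not called (1.02-fold, adjusted p = 0.80). Mup18 had 6.52, 5.49 and 5.28 RPM against 175, 216 and 161 RPM, 31.2-fold higher in 3’-LEXO. Mup10 was counted 1, 2 and 2 times in Trad-KAPA and 103, 150 and 177 times in 3’-LEXO, at least 51.4-fold above the floor of 3 reads. The Mup genes are near-identical copies. Of the exonic 50-mers, 86.7% were unique in Mup3, 10.4% in Mup18 and 23.5% in Mup10, so that the division of reads among the last 2 is uncertain.

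At the other end of the length scale, genes known for very long mRNAs were read higher by Trad-KAPA. Of 58 tested, 41 were called higher in Trad-KAPA and 9 in 3’-LEXO (median log2 ratio -0.87), with a summed share of 1.27% ± 0.112 in Trad-KAPA, against 0.350% ± 0.00694 in 3’-LEXO. Lrp1, an endocytic receptor of hepatocytes, had 1899, 1823 and 1856 RPM in Trad-KAPA and 602, 457 and 514 RPM in 3’-LEXO, 3.62-fold lower. Collagens and matrix genes had 33 of 58 called higher in Trad-KAPA and 9 in 3’-LEXO (median log2 ratio -0.80). In that list Col18a1, the collagen of the endostatin fragment, was 3.72-fold lower in 3’-LEXO, whereas Dcn, a small proteoglycan of the matrix, was 2.62-fold higher. Zinc finger genes, many of which encode repressors, had 158 of 320 called higher in Trad-KAPA and 66 in 3’-LEXO (median log2 ratio -0.49). Zfp869 had at least 121 reads in each Trad-KAPA library and 0, 0 and 1 in 3’-LEXO, where 94.0% of the 50-mers in its last 300 bases were unique.

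**Figure D3:**
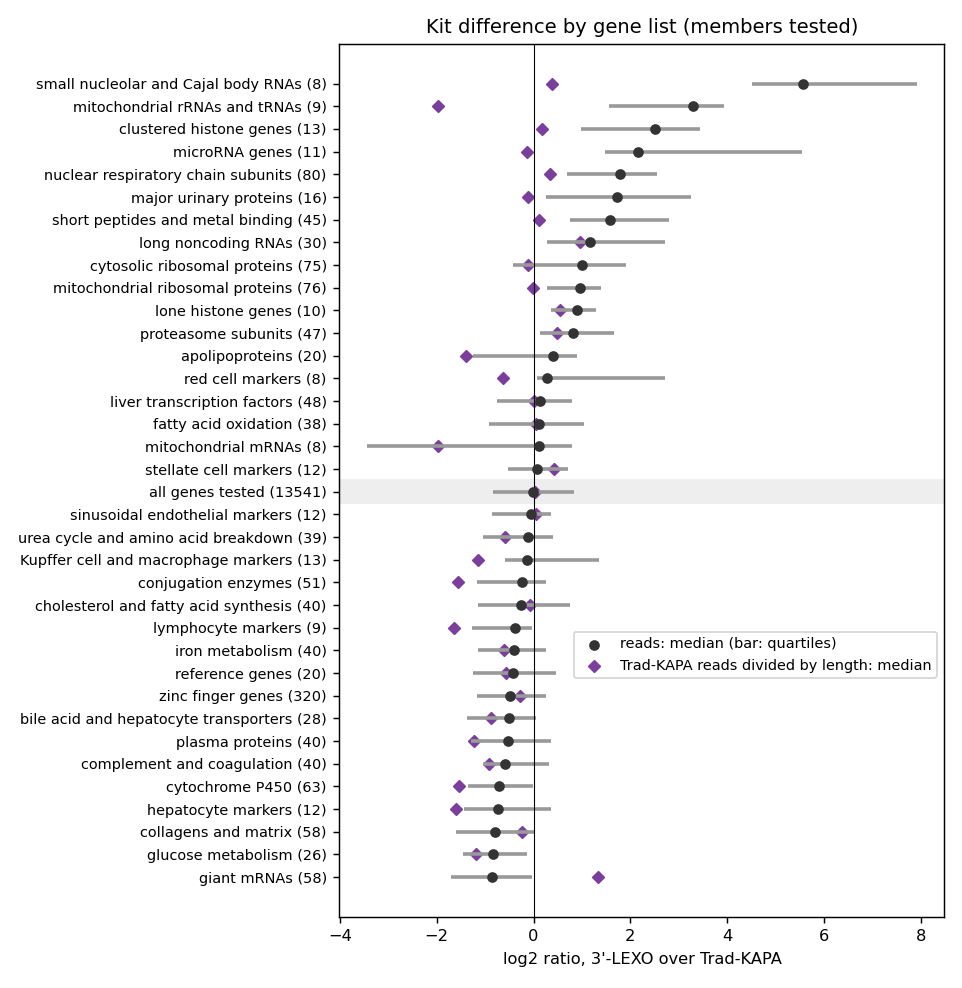
Median log2 ratio of 3’-LEXO over Trad-KAPA for each gene list with at least 8 members tested (circles, with bars for the quartiles) and the median after Trad-KAPA reads were divided by length (diamonds), with the number tested in parentheses and the row of all genes shaded. Respiratory chain, ribosomal and metallothionein lists lie to the right of all genes on reads and near 0 per length, and giant mRNAs lie lowest on reads at -0.87 and at 1.33 per length.

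Over all genes, the ratio fell from the shortest to the longest. The median log2 ratio was 3.94 for the 217 genes with merged exons under 500 bp, 1.42 for 433 genes of 500 to 1000 bp, 0.70 for 1601 genes of 1000 to 2000 bp, 0.08 for 4143 genes of 2000 to 4000 bp, -0.19 for 4863 genes of 4000 to 8000 bp and -0.31 for 2269 genes over 8000 bp. Among genes under 500 bp, 179 were called higher in 3’-LEXO and 31 in Trad-KAPA. Only 16 of these 217 genes were protein-coding, with a median log2 ratio of 2.93. Low genes can pass the filter through the kit where they are high, so the directions in this bin were partly fixed by the filter. Among protein-coding genes the median was 1.46 at 500 to 1000 bp and -0.32 over 8000 bp. Among genes over 8000 bp, 612 were called higher in 3’-LEXO and 1126 in Trad-KAPA. Spearman's rho of the log2 ratio with length was -0.27 across 13526 genes, and -0.29 to -0.24 in single mice, so that genes of 1 length still differed widely. Between 4000 and 8000 bp the quartiles were -0.97 and 0.52.

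**Figure D4:**
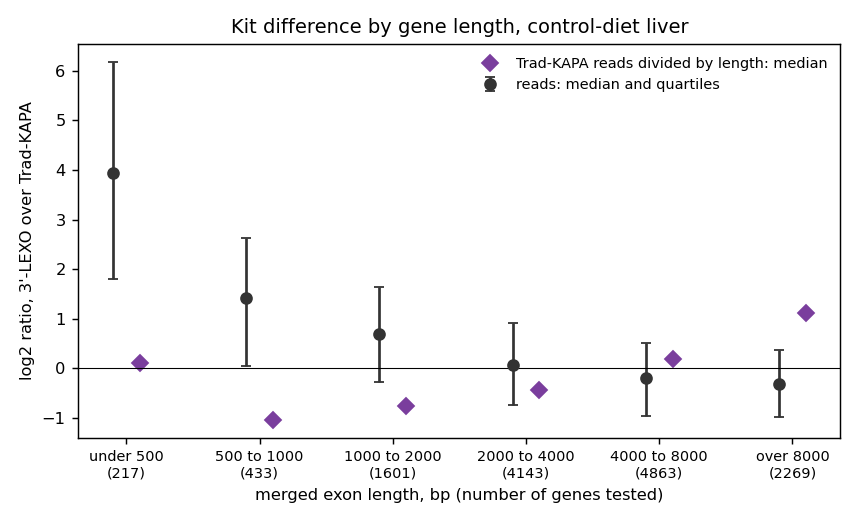
Log2 ratio of 3’-LEXO over Trad-KAPA against merged exon length in 6 bins, with the number of genes in parentheses. Circles with bars give the median and quartiles of the ratio of reads, and diamonds the median after Trad-KAPA reads were divided by length. The circles go from 3.94 down to -0.31 and the diamonds from -1.03 in the second bin up to 1.11 in the last. Of the 217 genes in the first bin, 16 are protein-coding.

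When Trad-KAPA reads were divided by length and 3’-LEXO reads were not, 5429 of 13526 genes (40.1%) were called higher in 3’-LEXO and 5252 (38.8%) higher in Trad-KAPA. With library totals in place of trimmed means as the scaling, these counts were 6941 and 3745. The direction turned for 1292 genes that were called on both scales, 594 of them from 3’-LEXO to Trad-KAPA and 698 the other way. Per length, the list medians of cytosolic ribosomal proteins (-0.12), mitochondrial ribosomal proteins (-0.01) and metallothioneins and short mRNAs (0.12) lay near that of all genes (0.02), and that of the respiratory chain was 0.33. Giant mRNAs went from -0.87 on reads to 1.33 per length, with 42 of 58 called higher in 3’-LEXO. Some liver lists moved further down, to -1.53 for cytochrome P450, -1.55 for conjugation enzymes and -1.23 for plasma proteins. Others did not, with -0.07 for cholesterol and fatty acid synthesis, 0.04 for fatty acid oxidation and 0.00 for liver transcription factors. Alb had a per-length log2 ratio of -2.25 and Apob of -2.55, while Trf remained at 3.36 and Atp5g3 at 3.02. Under division by length the median over genes was 0.10 under 500 bp, -1.03 between 500 and 1000 bp and 1.11 over 8000 bp.

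Gene classes differed in their share of reads. Nuclear protein-coding genes took 91.1% ± 0.671 of reads in Trad-KAPA, against 92.5% ± 0.401 in 3’-LEXO. Long noncoding RNAs took 4.62% ± 0.875 in Trad-KAPA, against 1.70% ± 0.190 in 3’-LEXO, and in Trad-KAPA most of this was a single gene, Gm42418, at 35176, 48634 and 32144 RPM in Trad-KAPA and 9300, 4818 and 7637 RPM in 3’-LEXO. Only 5.05% of its 50-mers were unique, and 99.5% of its bases lie opposite another annotated gene. Without Gm42418, the other long noncoding RNAs together held a larger share in 3’-LEXO in each mouse. Of 3479 long noncoding genes, 671 were tested. Of these, 315 (46.9%) were called higher in 3’-LEXO and 150 (22.4%) in Trad-KAPA, against 38.4% and 38.3% of all genes. A low gene can pass the filter through the kit where it is high, so these directions were partly fixed by the filter. Malat1 and Xist, nuclear RNAs of high level, were not called (1.10-fold and 1.08-fold, adjusted p = 0.23 and 0.40), and Snhg8, a snoRNA host gene, was 17.4-fold higher in 3’-LEXO. Pseudogenes took 0.148% ± 0.00554 in Trad-KAPA, against 0.252% ± 0.0104 in 3’-LEXO. Of 315 tested, 172 (54.6%) were called higher in 3’-LEXO and 114 (36.2%) in Trad-KAPA, against 38.4% and 38.3% of all genes. A pseudogene with few reads can pass the filter through the kit where it is high, so these directions were partly fixed by the filter. For each class named in this paragraph and for the mitochondrial classes the 3 mice agreed in direction, which gives p = 0.25 in the exact sign-flip permutation test, the smallest possible value.

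**Figure D5:**
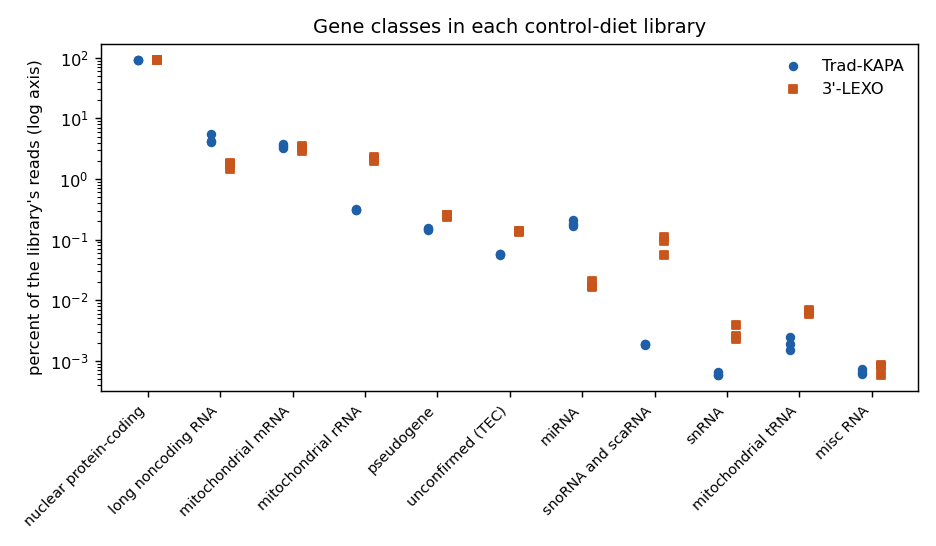
Percent of each control-diet library's reads (log axis) on 11 gene classes, with circles for Trad-KAPA and squares for 3’-LEXO. The 3’-LEXO points lie above those of Trad-KAPA for nuclear protein-coding genes by a narrow margin, mitochondrial rRNA, pseudogenes, unconfirmed genes (class TEC in the annotation), snoRNA, snRNA and mitochondrial tRNA, below them for long noncoding RNA and miRNA genes, and overlap for misc RNA and mitochondrial mRNA. Most Trad-KAPA reads of long noncoding RNA are those of the single gene Gm42418.

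Mitochondrial rRNAs and most mitochondrial mRNAs carry short poly(A) tails, whereas the tRNAs end in CCA. These RNAs were read very unequally. The 2 mitochondrial rRNAs took 0.310% ± 0.00863 of reads in Trad-KAPA, against 2.13% ± 0.128 in 3’-LEXO. mt-Rnr2, the large subunit rRNA, had 1801, 1679 and 1670 RPM in Trad-KAPA and 15975, 17154 and 18379 RPM in 3’-LEXO, 9.85-fold higher (log2 ratio 3.30 ± 0.15, adjusted p = 4.2e-15), and mt-Rnr1, the small subunit rRNA, was 2.97-fold higher. The mitochondrial mRNAs together took 3.53% ± 0.264 and 3.17% ± 0.291, which hid large differences of single genes. mt-Co1, a core subunit of cytochrome c oxidase, had 9520, 8641 and 10241 RPM in Trad-KAPA and 631, 613 and 660 RPM in 3’-LEXO, 15.1-fold lower (log2 ratio -3.92 ± 0.03). Of its 50-mers, 48.9% were unique, and in its last 300 bases 0. mt-Nd5 and mt-Nd6, subunits of complex I, had log2 ratios of -3.38 ± 0.31 and -3.63 ± 0.36, and 92.4% and 100% of their 50-mers were unique. mt-Cytb, of complex III, had 7528, 7270 and 8348 RPM in Trad-KAPA and 11477, 13524 and 14701 RPM in 3’-LEXO, 1.68-fold higher. mt-Nd4 and mt-Nd2 had log2 ratios of 0.92 and 0.25, and mt-Nd1 was not called (log2 ratio -0.02 ± 0.11, adjusted p = 0.81). mt-Nd3, the last of the 8 tested, was counted 0 times in each Trad-KAPA library and 17, 46 and 31 times in 3’-LEXO, and 2.01% of its 50-mers were unique. Of the mitochondrial tRNAs, 5 of 7 tested were called higher in 3’-LEXO, led in level by mt-Tm, the tRNA of methionine, with 2.30, 2.81 and 3.90 RPM in Trad-KAPA and 46.9, 46.2 and 45.9 RPM in 3’-LEXO. The other 2, mt-Ti and mt-Tw, were called higher in Trad-KAPA. Over all genes, 38.4% were called higher in 3’-LEXO and 38.3% in Trad-KAPA. However, mt-Ta, mt-Tp, mt-Tq and mt-Tl1 had at most 9 reads in any Trad-KAPA library, and mt-Tw had 0 in 3’-LEXO. A gene this low can pass the filter through the kit where it is high, so these directions were largely fixed by the filter.

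Several short structured RNAs were counted a few times at most in Trad-KAPA and many times in 3’-LEXO. The snoRNA and scaRNA genes, guides of rRNA and snRNA modification, took 0.00187% ± 2.62e-05 of reads in Trad-KAPA, against 0.0872% ± 0.0288 in 3’-LEXO, 46.6 times as much. Of 240 such genes 20 passed the filter, and of 228 snRNA genes 8 did, most of them through their 3’-LEXO reads alone, so the directions of those that passed were largely fixed by the filter. Rn7sk, a structured RNA that holds back transcription elongation and that was chosen after its values were seen, went the other way, with 36, 48 and 22 reads in Trad-KAPA against 3, 4 and 5 reads in 3’-LEXO (8.01-fold lower, adjusted p = 5.3e-06). Most of the 3’-LEXO reads of this class were those of Snord13, a guide of rRNA acetylation, and Snord118, the U8 RNA of rRNA processing. Snord13 was counted 2, 0 and 0 times in Trad-KAPA and 10085, 8445 and 4347 times in 3’-LEXO, which is at least 2741-fold above the floor of 3 reads per library. Snord118 (chr11:69073427-69073561 of GRCm38, plus strand) was counted 2, 1 and 1 times against 3778, 3132 and 1915 times, at least 1057-fold above the floor. Both were highest in mouse 1 and lowest in mouse 3. Snord89 (chr1:39548745-39548854, minus strand), chosen after its values were seen as the next of the class in 3’-LEXO level, had 0.181, 0.335 and 0.145 RPM against 33.9, 25.7 and 20.7 RPM.

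The sequences of Snord118 and Snord89 are given from the GENCODE M21 transcripts (GRCm38), 5′ to 3′, as examples of snoRNAs read by 3’-LEXO. Capitals mark the first C box, searched as TGATGA on the transcript strand, and the last D box, searched as CTGA.
Snord118: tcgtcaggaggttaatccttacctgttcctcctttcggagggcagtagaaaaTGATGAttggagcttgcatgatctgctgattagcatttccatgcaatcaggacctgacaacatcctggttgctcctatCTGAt
Snord89: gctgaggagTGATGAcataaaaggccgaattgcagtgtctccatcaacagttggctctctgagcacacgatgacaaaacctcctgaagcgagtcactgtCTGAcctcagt
Both boxes in that order were held by 60 of 240 snoRNA and scaRNA genes in the count table (25%), by 9 of the 20 tested, and by 1 of 228 snRNA genes. Neither sequence holds a run of more than 4 A. The median longest run of A was 4 bases among the 20 tested and 3 among all 240.

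Genes annotated as miRNA went in both directions. Mir6236 had 1156, 1376 and 1058 RPM in Trad-KAPA and was counted 2, 1 and 0 times in 3’-LEXO, at least 5595-fold lower against the floor of 3 reads. Gm23935 (chr16:11144125-11144181, plus strand) had 614, 725 and 609 RPM in Trad-KAPA and 4.07, 1.79 and 2.98 RPM in 3’-LEXO, 223-fold lower (log2 ratio -7.80 ± 0.77). Of its 50-mers, 0 was unique among annotated exons. These 2 genes gave nearly all reads of the class in Trad-KAPA, 0.187% ± 0.0225 of the library against 0.0182% ± 0.00220 in 3’-LEXO. In the other direction, Mir703 (chr5:98475556-98475664, minus strand) had 3.08, 4.15 and 3.54 RPM in Trad-KAPA and 91.3, 115 and 79.2 RPM in 3’-LEXO, 26.1-fold higher (adjusted p = 1.1e-15). Gm26384 (chr17:21284103-21284212, minus strand) was counted 0 times in each Trad-KAPA library and 217, 259 and 181 times in 3’-LEXO, at least 78.7-fold above the floor. Mir122, a miRNA gene of hepatocytes, lies over its whole length within another annotated gene of the same strand, so that its log2 ratio of 5.82 may hold reads of that gene.

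The sequences of Mir703 and Gm26384, from GENCODE M21 (GRCm38), show how far these genes resemble each other. Capitals mark the stretch from the 5′ end that is identical in both.
Mir703: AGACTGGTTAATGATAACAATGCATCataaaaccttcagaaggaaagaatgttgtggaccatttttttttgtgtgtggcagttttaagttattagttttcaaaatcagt
Gm26384: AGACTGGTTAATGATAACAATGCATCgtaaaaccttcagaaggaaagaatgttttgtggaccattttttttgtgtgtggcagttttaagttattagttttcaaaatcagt
Mir703 and Gm26384 shared the first 26 bases and 42 of the 90 stretches of 20 bases in Mir703. Gm24951 and Gm24276, also annotated as miRNA, found by this shared sequence, held 46 and 23 of them and had log2 ratios of 4.51 and 5.66. Of the 50-mers, the length of a read, 100% were unique among annotated exons in Mir703, Gm24951 and Gm24276, and 80.3% in Gm26384. Copies outside the annotation were not searched, and a division of reads among copies was not tested. The annotated mature product of Mir703 is given from RefSeq (GRCm38.p6), with the seed of bases 2 to 8 in capitals.
mmu-miR-703: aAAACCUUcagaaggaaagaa

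Counting genes read by a single kit gave 55 for Trad-KAPA and 65 for 3’-LEXO, with at least 30 reads in each of the 3 libraries of that kit and at most 3 in each of the other. The Trad-KAPA genes comprised 28 protein-coding genes, 15 pseudogenes and 8 long noncoding genes, with a median length of 1872 bp. The 3’-LEXO genes comprised 31 pseudogenes, 13 unconfirmed genes and 7 protein-coding genes, with a median length of 604 bp. After Mir6236, the gene with the most reads in Trad-KAPA was CT010467.1, an annotated rRNA fragment with 1055, 1319 and 906 reads against 0 in 3’-LEXO, at least 339-fold lower. Anxa11, which encodes a calcium-binding annexin, had the most reads of the protein-coding genes read by Trad-KAPA alone, with 343, 285 and 253 reads against 0, 1 and 0. Its last 300 bases were unique. Pgam1, a glycolytic enzyme, had 66, 67 and 49 reads against 0 in each 3’-LEXO library, at least 18.7-fold lower. Among these genes, 38 of 55 and 42 of 65 met the same limits in the iron-loaded mice.

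The largest differences of genes with at least 20 reads in every library led to the same groups and to a few others. In Trad-KAPA, the order after Gm23935 was led by Lars2 (ENSMUSG00000035202, GRCm38 chromosome 9, 123366927 to 123462666), the mitochondrial leucyl-tRNA synthetase. It had 1686, 1957 and 1462 RPM in Trad-KAPA and 8.29, 10.7 and 9.71 RPM in 3’-LEXO, 180-fold lower (log2 ratio -7.49 ± 0.23, adjusted p = 4.8e-18). Among annotated exons 99.8% of its 50-mers were unique, but similar sequence outside the annotation was not searched. Pik3ap1, an adaptor of PI3-kinase, and Acsf2, an acyl-CoA synthetase of mitochondria, were 30.0-fold and 28.4-fold lower in 3’-LEXO. In 3’-LEXO, the leading genes beside Usmg5, Mup18, Rpl37a and Mir703 were Gm11942 (51.9-fold), Fmc1, an assembly factor of ATP synthase (24.9-fold), Smim4, a small membrane protein (23.3-fold), Atp6v1f, a subunit of the proton pump (20.9-fold), and Tuba1c, a tubulin (19.8-fold).

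Genes often used to scale quantitative PCR were not free of the difference. Of 20 tested, 11 (55%) were called higher in Trad-KAPA and 8 (40%) in 3’-LEXO, against 38.3% and 38.4% of all genes. B2m, the light chain of class I MHC, was 1.30-fold higher in 3’-LEXO, Eef2, a translation elongation factor, 1.58-fold lower, and Eef1a1, another elongation factor, 25.2-fold lower at 631 to 709 RPM against 25.2 to 30.6 RPM. Gapdh, a glycolytic enzyme with many processed pseudogenes, was counted at 6.04, 7.17 and 6.43 RPM in Trad-KAPA and at 0.214, 0.572 and 0.0709 RPM in 3’-LEXO. Of the exonic 50-mers, 59.6% of Eef1a1 and 74.9% of Gapdh were unique among annotated exons, and copies outside the annotation were not searched. Unc50, the example gene of the study, was 5.61-fold higher in 3’-LEXO (24.6, 26.7 and 22.6 RPM against 130, 145 and 146 RPM).

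Markers of the cell types of the liver are set here beside the shares of all genes, 38.4% called higher in 3’-LEXO and 38.3% in Trad-KAPA. Of 12 hepatocyte markers, 8 were called higher in Trad-KAPA and 4 higher in 3’-LEXO, and their summed share was 15.5% ± 0.614 and 7.21% ± 0.922. Alb alone held most of this sum in both kits, and the other hepatocyte markers together differed far less between the kits. Of 13 Kupffer cell and macrophage markers, 6 were called higher in Trad-KAPA and 5 in 3’-LEXO, of 12 sinusoidal endothelial markers 5 and 3, of 12 stellate cell markers 4 and 5, of 9 lymphocyte markers 4 and 2, and of 3 bile duct markers 0 and 2. Within the Kupffer list, Cd5l had 183, 171 and 120 RPM in Trad-KAPA and 889, 742 and 693 RPM in 3’-LEXO, 4.87-fold higher. Within the endothelial list, Stab1 and Stab2 were 2.52-fold and 1.82-fold lower in 3’-LEXO and Kdr 2.34-fold higher. Both libraries of a mouse came from the same RNA, hence from the same cells. Between mice, more cells of a type and more RNA per cell cannot be told apart in bulk tissue.

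Of 8 red cell markers tested, 3 (37.5%) were called higher in 3’-LEXO, 1 (12.5%) in Trad-KAPA and 4 were not called (median log2 ratio 0.28). The shares of all genes were 38.4% and 38.3%. The 3 higher in 3’-LEXO were globins. Hbb-bs, an adult beta-globin, had 9.73, 31.3 and 78.0 RPM in Trad-KAPA and 63.9, 187 and 500 RPM in 3’-LEXO. Hbb-bt had 2.66, 9.11 and 18.1 RPM against 40.7, 126 and 318 RPM, and Hba-a1, an alpha-globin, 3.99, 18.5 and 43.9 RPM against 50.4, 96.3 and 379 RPM. The kits overlapped for Hbb-bs, but all 3 genes were lowest in mouse 1 and highest in mouse 3 in both kits, and 6.20-fold, 15.4-fold and 7.75-fold higher in 3’-LEXO. Slc4a1, the anion exchanger of red cells, was the member called higher in Trad-KAPA, 1.91-fold. Since the globin genes have near-identical copies, with 46.8%, 41.7% and 27.7% of exonic 50-mers unique, their division is uncertain.

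Sequence features of the genes with 4-fold differences were described without a test. A polyadenylation signal, AATAAA or ATTAAA on the transcript strand within the last 50 bases of an annotated transcript, was present in 85.1% of all genes tested, in 58.6% of those at least 4-fold higher in 3’-LEXO and in 70.9% of those at least 4-fold higher in Trad-KAPA. Among protein-coding genes these shares were 89.8%, 89.4% and 82.7%. A run of at least 10 A in the exons was present in 26.0%, 22.4% and 12.7%. The median GC content was 49.3%, 47.4% and 52.6%. Under 50% of the 50-mers in the last 300 bases were unique for 7.22% of all genes, 11.1% of those higher in 3’-LEXO and 18.7% of those higher in Trad-KAPA. A single exon block was the structure of 7.74%, 42.0% and 10.5%, and the median length was 4209, 1722 and 4092 bp.

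The 6 libraries of iron-loaded mice gave the same comparison in other animals. There, 10388 of 13510 genes tested (76.9%) were called. Of the 10113 genes called in control mice and tested there, 10031 (99.2%) had the same sign and 9297 (91.9%) had the same sign and were called, while 2 were called in the opposite direction. All 1861 genes with a 4-fold difference in control mice that were tested there had the same sign. Across 13073 genes, Pearson's r of the log2 ratios of the diets was 0.970, which describes genes and not replicates. Lars2 had a log2 ratio of -7.59 in iron-loaded mice against -7.49 in control mice, Apob -4.55 against -4.28, Trf 3.55 against 3.70, Mt2 4.05 against 3.94 and Atp5g3 3.98 against 3.96.

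The kit difference itself differed between diets for 5 of 14384 genes (0.0348%) by the interaction of kit and diet in edgeR's quasi-likelihood test, with 1027 genes at an unadjusted p below 0.05. They were Mup3 and Mup9 of the major urinary proteins, Slco1a1, an uptake carrier of organic anions, Abcc4, an export pump, and Serpina1e, an antitrypsin gene. Mup3 had a log2 ratio of 0.02 in control mice and 1.14 in iron-loaded mice, where it fell to 7.0, 25.5 and 23.2 RPM in Trad-KAPA and 19.5, 66.7 and 35.5 RPM in 3’-LEXO. DESeq2 called 19 genes, edgeR without the mouse as a block called 0, and leaving out control mouse 1 gave 0 and iron-loaded mouse 2 gave 31.

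The spread between mice was larger within 3’-LEXO. At equal depth, the common biological coefficient of variation, a measure of the spread beyond counting noise, was 0.136 over the 3 Trad-KAPA libraries and 0.170 over the 3 3’-LEXO libraries, across 13562 genes and without a test. These values hold library preparation and mice together.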

How the data were processed

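Liver RNA of 3 control-diet and 3 iron-loaded mice was prepared with both kits, 1 µg per library. Per the labels and the study's methods, 50 bp single-end reads were aligned with STAR 2.5.3a to mm10 (GRCm38). The deposited values are the authors' whole-number read counts per gene, restricted to unique alignments within exons and with duplicates kept. The counting program, the annotation release and the use of strand are not given in the sources used here. Reads from copies of a gene can be lost by the uniqueness filter, and duplicates widen the counting error.

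Columns were matched to samples by name, with 0 columns left unmatched. Genes passed edgeR's expression filter within the 6 control libraries. Kit differences were tested with edgeR 4.0.16 (trimmed-mean scaling, quasi-likelihood test, mouse as a block, Benjamini-Hochberg adjustment) in R 4.3.3, with limma 3.58.1 loaded by it, and DESeq2 1.42.0 served as an alternative. The per-length comparison entered merged exon length as an offset for Trad-KAPA, and kit by diet interactions were fitted over 12 libraries. Tables used Python 3.11.15, pandas 2.3.3, numpy 2.4.6 and scipy 1.17.1. The study states that both kits used the same RNA stocks, and same-numbered libraries in the labels were taken as the same mouse. Their deviations from the kit means correlated at 0.443 to 0.573 over 10377 genes, and differently numbered ones at -0.34 to -0.17. Library pairs of a group differed by 20.2 to 39.8 chi-square per degree of freedom, more than counting noise gives.

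In simulated counts for 13434 genes, the kit test recovered 100 of 100 genes changed 4-fold and 47 of 100 changed 1.5-fold. A gene that was not called may thus still differ by 1.5-fold. The changed genes all had a mean of at least 50 reads, so recovery at lower levels was not simulated. The simulation also changed few genes and gave both kits the same spread, unlike the data. Named genes were the 2 most abundant and the 2 largest separate differences of each list, the 10 largest differences in each direction among genes with 20 reads in each library, the 5 most abundant single-kit genes of each kit, the 10 most abundant genes of each kit, and the study's example and iron genes. All 8 mitochondrial mRNAs were also given. Members, lists and tests were chosen with earlier results of these data known. Gene models, exon lengths, overlaps and unique 50-mers were taken from GENCODE M21 and its transcripts, which matched 26949 of 27022 identifiers. Alternatives were no block, DESeq2, other size factors, library totals, no filter, a mean of at least 50 reads, equal depth, protein-coding genes only, longest transcript length and leaving out each mouse.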

Additional observations from a re-analysis of the deposited data

Results flagged for a closer look

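For 5 genes the kit difference in iron-loaded mice differed from that in control mice by the interaction of kit and diet (edgeR's quasi-likelihood test over 14384 genes, mouse as a block). Each value is the log2 ratio of 3’-LEXO over Trad-KAPA in iron-loaded mice minus that in control mice. It was 1.82 for Mup9 (adjusted p = 0.0434, ratios of 0.65 in control and 2.46 in iron-loaded mice). It was 1.09 for Mup3 (adjusted p = 0.0285, 0.02 and 1.14). For Slco1a1 it was 2.47 (adjusted p = 0.0467, -0.53 and 1.96), where the iron-loaded libraries held 0.0714 to 0.431 RPM in Trad-KAPA and 0.818 to 1.59 RPM in 3’-LEXO. For Abcc4 it was -1.39 (adjusted p = 0.0285, 0.42 and -0.95), where the control libraries held 1.30 to 2.24 RPM in Trad-KAPA and 1.56 to 3.22 RPM in 3’-LEXO. For Serpina1e, one of several near-identical antitrypsin genes, it was 0.92 (adjusted p = 0.0285, -2.18 and -1.25). Mup9, Slco1a1 and Abcc4 were below 10 RPM in every library of 1 of the diets, and the part of the level in these differences was not tested. The cage cannot be told apart from the diet.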

How the results depend on the processing

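Of 92 counts of the kit difference under an alternative, 85 stayed within 1.5 times. The exceptions were all counts of 4-fold differences. With a mean of at least 50 reads these were 610 higher in 3’-LEXO and 530 higher in Trad-KAPA on reads, and 662 and 720 per length. With protein-coding genes only, 620 were higher in 3’-LEXO on reads. Per length, library totals gave 1733 higher in 3’-LEXO, with 65.0% of all calls in that direction against 50.8% and a median log2 ratio of 0.43, and no expression filter gave 2161 higher in Trad-KAPA. Fewer or more genes tested set the counts under the filters. Spearman's rho with length was -0.29 with the longest transcript and -0.23 with protein-coding genes. Single-kit genes numbered 182 and 243 with at least 10 reads against at most 3, and 13 and 14 with at least 30 reads against 0, for Trad-KAPA and 3’-LEXO. For gene lists, medians were compared with the spread between mice, and counts of members called with a limit of 1.5 times. By these limits 1110 values stayed, 91 moved and 2 turned. Without a filter the median of the microRNA gene list turned from 2.16 to -1.82 and that of the bile duct markers from 0.78 to -0.0043, as more members entered.

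Without the replicate block, 9400 of 13541 genes were called, 4685 higher in 3’-LEXO and 4715 in Trad-KAPA, and of the named genes Pck1, Hpx, Zfp91, Atoh8, Hamp, Slc11a2 and Smad7 were no longer called. The count of kit by diet interactions was unstable. It was 0 without the replicate block, 19 with DESeq2, and 0 to 31 when single mice were left out, lowest without control mouse 1 and highest without iron-loaded mouse 2. Without iron-loaded mouse 3 it was 1, without iron-loaded mouse 1 it was 23 and without control mouse 3 it was 8. The cause was not tested.

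Of the values of named genes under alternatives, 1811 kept direction and call, 27 lost the call, 5 gained it and 0 turned. Cyp3a11, Cebpa, Xist and Hfe2 were called without mouse 2, and Malat1 without mouse 1, while Hamp lost its call without mouse 2. All 60 class shares moved by less than the spread between mice. Calls rest on 3 mice of a single cage, genes under about 20 reads carry wide counting error, and near-identical genes cannot be separated.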
